A study of Mus musculus with 16 samples.

Results

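Ribosome footprints, the stretches of mRNA that a translating ribosome shields from RNase I, were counted per gene in the dorsal horn part of the spinal cord after spared nerve injury (SNI) or sham surgery. The genes described are those with more than 127 footprint reads summed over the 4 spinal cord footprint libraries. These were 12018 of the 53465 genes in the table, of which 11662 were protein coding and 356 had another gene type. All mice were C57BL/6J females operated on both sides at 8 weeks of age. In the SNI group the tibial and the common peroneal branch were ligated and sectioned on each side, and the sural branch was spared. In the sham group the same surgery left all 3 sciatic branches untouched. The lumbar segment that serves the L3 to L5 dorsal root ganglia (DRG) was taken 30 days later and split in the frontal plane. Each library came from a pool of 10 mice, with 2 pools per group, so p-values measure the spread between such pools. The tissue is a mixture of cells, in which fewer cells of a type and less RNA per cell cannot be told apart.

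A footprint count depends both on how much mRNA of a gene is present and on how many ribosomes each mRNA carries. After a peripheral nerve is cut, sensory neurons switch on growth and stress genes, and their axons end in the dorsal horn. Microglia in the territory of the cut nerve react, and motor neurons whose axons run in that nerve are injured as well. The footprint fraction is chosen by size and also holds small RNAs and fragments of other RNAs, which are not translated, so that reads in noncoding genes are described here as reads of the footprint fraction only.

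Among noncoding genes the largest increases were in miRNA genes, whose short mature RNAs pair with target mRNAs through a seed. The mature sequences from RefSeq (GRCm38.p6) are shown for the 4 genes with the largest increases, for the most read of the called genes with a mature entry, and for 2 pairs of genes that share a seed. They are written 5′ to 3′ with the seed, bases 2 to 8, in capitals. For Mirlet7a-2 and Mir219a-2 a single arm was matched, so the seeds of their other arms were not compared. The positions of these arms, in the order shown, were chr14:61632075-61632096 and chr14:61632038-61632059 (minus strand), chr11:120014781-120014802 and chr11:120014816-120014837 (minus), chr9:41536777-41536797 (plus), chr2:29845689-29845709 (minus), chr4:150068473-150068494 and chr4:150068517-150068537 (plus), chr16:77599672-77599693, chr15:85707325-85707346, chr7:78888295-78888317 and chr17:56243017-56243040 (all plus).
mmu-miR-15a-5p: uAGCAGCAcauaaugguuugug
mmu-miR-15a-3p: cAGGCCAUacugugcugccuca
mmu-miR-338-3p: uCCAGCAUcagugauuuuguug
mmu-miR-338-5p: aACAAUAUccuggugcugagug
mmu-let-7a-2-3p: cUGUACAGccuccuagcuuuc
mmu-miR-219a-5p: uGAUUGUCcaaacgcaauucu
mmu-miR-34a-5p: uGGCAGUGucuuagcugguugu
mmu-miR-34a-3p: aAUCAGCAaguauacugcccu
mmu-let-7c-5p: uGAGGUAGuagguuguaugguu
mmu-let-7b-5p: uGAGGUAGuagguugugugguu
mmu-miR-7a-5p: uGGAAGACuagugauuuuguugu
mmu-miR-7b-5p: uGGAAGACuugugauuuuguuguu

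The 4 libraries held between 6898056 and 10688450 reads in genes, and their scaling factors lay between 0.99852 and 1.0009. The markers of neurons, astrocytes, oligodendrocytes and microglia were all read in every library (Snap25 between 4065 and 4157 CPM, reads normalised to library size, and Cx3cr1 between 46.9 and 56.0). Markers of other tissues were present at low levels: Avil, an actin-binding protein of sensory neurons, had 25, 29, 17 and 47 reads and Scn10a, a sodium channel of nociceptors, had 32, 29, 20 and 48 reads in sham pools 1 and 2 and SNI pools 1 and 2. Both were highest in SNI pool 2 alone. The T cell gene Cd3e had 0, 0, 0 and 1 reads. Pools of 1 group differed little more than counting error, with a mean chi-square per gene of 1.196 for sham and 1.177 for SNI, against 3.355 to 4.485 for a sham and an SNI pool.

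Footprints of 84 protein coding genes rose after SNI (0.72% of those tested) and 108 fell (0.926%), at an adjusted p under 0.05 (edgeR quasi-likelihood test, Benjamini-Hochberg over all 12018 genes). Most of these changes were small. The fold change was within 1.2-fold for 50 of the 84 genes and 86 of the 108, and over 1.5-fold for 9 and 6. The pools of both groups did not overlap for all 84 genes that rose and for 107 of the 108 that fell, against 20.9% and 22.2% of all protein coding genes tested. The calls rest on the same values, so this separation adds no support to them. The common biological coefficient of variation was 0.016, and the genes called were well read, with a median of 157 CPM among those that rose, 414 among those that fell and 30.1 among the rest. In DESeq2, 22 of the 84 and 15 of the 108 were called, and each of these 37 genes was also called in all 4 refits without 1 library. They are named as stable here, and a gene not given as stable was not called by DESeq2. These fits used the same reads and the same read minimum, so the label adds no separate support. For 4 of the 84 genes the sham reads alone were under 64.

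**Figure D1:**
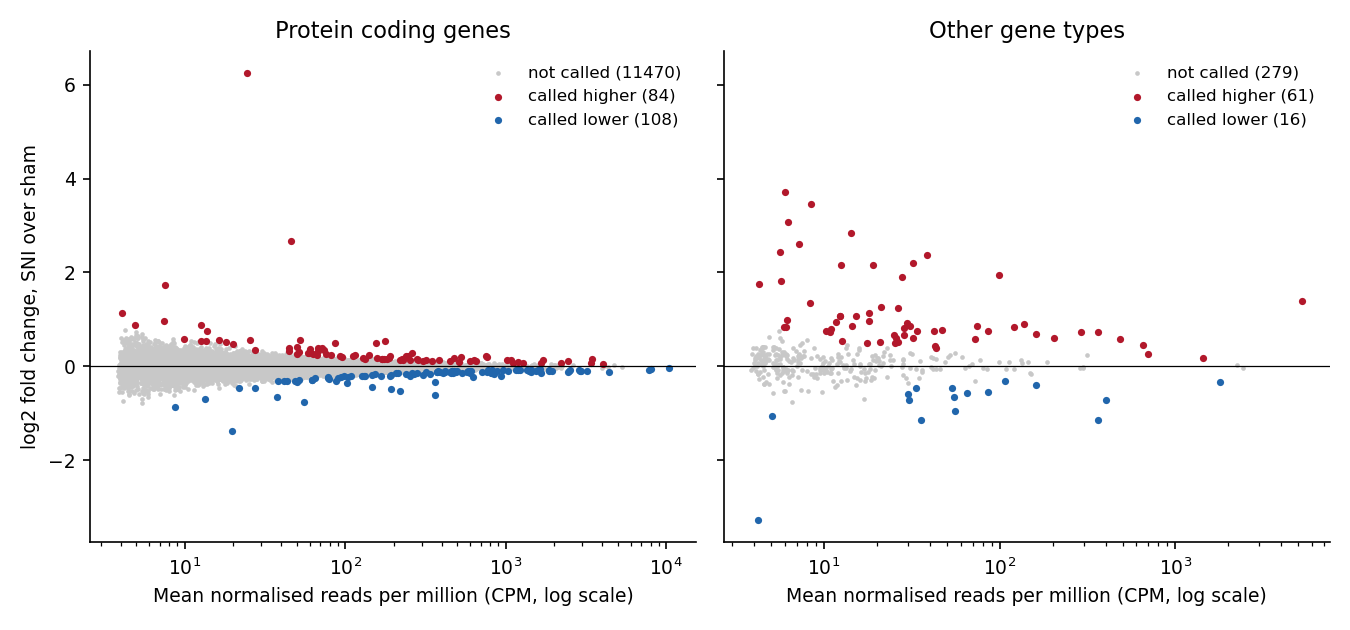
The log2 fold change of footprints, SNI over sham, is plotted against the mean normalised CPM (log scale) for 11662 protein coding genes (left) and 356 genes of other types (right), with genes called higher in red, called lower in blue and the rest in grey. Nearly all called protein coding genes lie close to 0, with Sprr1a at 6.24 at the top, while called genes of other types spread from -3.27 to 3.71.

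Exactly at the read minimum stood 14 genes, of which 11 were protein coding, and 1 read below it, at 127 reads, stood 9 genes, of which 8 were protein coding. Of the spinal cord genes that the study discusses, Rtn4rl2 (18 reads), Scn4a (11), Htr3b (10) and Tmem54 (4) were under the minimum and were not tested.

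Of 23 tested genes that injured sensory neurons induce, 8 rose and 0 fell. The median log2 fold change of these 23 was 0.195, against -0.00202 over all protein coding genes tested. For this list and those below, the shares over all protein coding genes tested were 0.72% higher and 0.926% lower. The lists were written with earlier results of these data known, so their counts are not a test of the lists. Sprr1a, a small proline-rich protein induced in regenerating neurons, lies at chr3:92483952-92485895 (GRCm38, minus strand). It had 1.11 and 0.28 CPM in the sham pools, from 8 and 3 reads, and 44.2 and 51.6 CPM in the SNI pools. The change was the largest of any coding gene, a log2 fold change of 6.24 ± 0.22 (SE; adjusted p = 1.9e-15), and both SNI pools were high. Its reads in sham alone would not have passed the minimum. Tubb6, a beta-tubulin of growing axons and non-neuronal cells, had 3.75 and 3.27 CPM in sham and 12 and 10.9 CPM after SNI, a log2 fold change of 1.72 ± 0.19 (adjusted p = 1.5e-06). It was the only other member of this list that more than doubled, with sham reads that again would not have reached the minimum alone.

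The other members rose less. Galanin (Gal), a neuropeptide, had 21.1 and 20.4 CPM in sham and 30.5 and 30.6 CPM after SNI, a log2 fold change of 0.56 ± 0.097 (adjusted p = 0.0007). Neuropeptide Y (Npy) had 40.1 and 43.8 CPM in sham and 63.3 and 60.9 CPM after SNI, a log2 fold change of 0.56 ± 0.070 (adjusted p = 9.9e-06). In both genes the pools of each group lay close together and far from the other group. Gap43, a growth cone protein, rose by 0.24 on the log2 scale, and Tubb3, the neuronal beta-tubulin, by 0.20. Ecel1, a neuronal endopeptidase-like enzyme, rose by 0.25 (adjusted p = 0.016), but it was not called without sham pool 2 (adjusted p = 0.361) or SNI pool 2 (0.0587). Sprr1a, Tubb6, Npy and Tubb3 were stable. Sox11, a transcription factor of the same programme, had 5.55 and 4.86 CPM in sham and 7.33 and 6.23 CPM after SNI and did not pass (adjusted p = 0.39). Another 9 list members, Atf3 among them, were under the read minimum.

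Genes of sensory neurons and of their central terminals went both ways, with 1 of 14 tested genes higher and 3 lower. Gamma-synuclein (Sncg) rose by 0.21 on the log2 scale, but was not called without sham pool 1 (adjusted p = 0.155), sham pool 2 (0.14) or SNI pool 2 (0.292). The 3 neurofilament subunits fell slightly. Nefm had 2573 and 2545 CPM in sham and 2387 and 2374 CPM after SNI, a log2 fold change of -0.10 ± 0.014 (adjusted p = 3.2e-05), and was stable. Nefh and Nefl fell by 0.08 and 0.07 on the log2 scale, and neither was called without sham pool 1 (adjusted p = 0.101 and 0.0599) or SNI pool 1 (0.152 and 0.0673).

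Zfand1, an AN1-type zinc finger protein that has been linked to the clearance of stress granules, was the second largest coding change. It lies at chr3:10339953-10351317 (GRCm38, minus strand). It had 10.7 and 13.7 CPM in sham and 70.5 and 89.0 CPM after SNI, a log2 fold change of 2.66 ± 0.12 (adjusted p = 7.4e-14), and was stable. The mRNA of Zfand1 had a log2 fold change of 0.01 (adjusted p = 0.99), and the footprint change exceeded the mRNA change by 2.67 (adjusted p = 7.6e-19). Ankrd60, an ankyrin repeat protein, had 9.30 and 11 CPM in sham and 17.1 and 17.5 CPM after SNI, a log2 fold change of 0.75 ± 0.13 (adjusted p = 0.0012). For Ankrd60 the mRNA change was 0.25 and the difference of both changes was not called (adjusted p = 0.71).

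Of 28 tested microglia and macrophage genes 9 rose and 0 fell, against 0.72% and 0.926% of all protein coding genes tested. Of the 28, 24 had a log2 fold change above 0. The median of the 28 was 0.204, against -0.00202 over all protein coding genes tested. Cathepsin S (Ctss), a lysosomal protease that microglia also secrete, had 127 and 130 CPM in sham and 184 and 178 CPM after SNI, a log2 fold change of 0.49 ± 0.042 (adjusted p = 2e-08). Lag3, a receptor for MHC class II, had 9.30 and 8.51 CPM in sham and 16.5 and 16.2 CPM after SNI, a log2 fold change of 0.89 ± 0.14 (adjusted p = 0.00018). In both genes, which were stable, the SNI pools lay above both sham pools with little spread.

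Laptm5, a lysosomal membrane protein of haematopoietic cells, rose by 0.36 in log2 units (adjusted p = 0.0011) and was called in every refit without a library. Galectin-3 (Lgals3), the receptor Gpr34, the adaptor Tyrobp, the CSF1 receptor (Csf1r) and apolipoprotein E (Apoe) rose by 0.96, 0.54, 0.53, 0.22 and 0.06. Each of these 5 calls was lost without at least 1 library. Lgals3 was not called without sham pool 1 (adjusted p = 0.0589), nor Csf1r without sham pool 2 (0.0849). Apoe was lost without sham pool 2 (0.112) or SNI pool 2 (0.21), and Gpr34 without sham pool 2 (0.263), SNI pool 1 (0.0547) or SNI pool 2 (0.141). Tyrobp was lost without any 1 library (adjusted p from 0.0609 to 0.326). The chemokine receptor Cx3cr1 had 53.3 and 46.9 CPM in sham and 56.0 and 55.8 CPM after SNI, and Aif1, which encodes Iba1, had 6.25 and 6.54 CPM in sham and 7.59 and 10.3 CPM after SNI. Neither passed (adjusted p = 0.27 and 0.25).

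The 3 chains of complement C1q, the recognition molecule of the classical pathway, rose together. C1qb had 71.6 and 70.4 CPM in sham and 101 and 100.2 CPM after SNI, a log2 fold change of 0.50 ± 0.052 (adjusted p = 4.9e-07). C1qa rose by 0.40 ± 0.061 (adjusted p = 0.00016) and C1qc by 0.39 ± 0.059 (adjusted p = 0.00011), and all 3 were stable. C3, the central component downstream of C1q, went the other way, with 50.9 and 45.9 CPM in sham and 38.3 and 38.8 CPM after SNI. Its log2 fold change of -0.31 ± 0.077 (adjusted p = 0.026) was not called without sham pool 1 (adjusted p = 0.206) or SNI pool 1 (0.101). In all, 3 of 10 tested complement genes rose and 1 fell.

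Of 13 tested MHC genes 2 rose and 0 fell. Beta-2-microglobulin (B2m), the light chain of MHC class I, had 217 and 221 CPM in sham and 256 and 257 CPM after SNI, a log2 fold change of 0.23 ± 0.034 (adjusted p = 0.00013), and was stable. H2-Q4, a class I heavy chain, rose by 0.89 from under 64 sham reads, in a family of near-identical genes and with an overlapping antisense gene, and was lost without sham pool 1 (adjusted p = 0.0545), sham pool 2 (0.344) or SNI pool 1 (0.286). None of 13 interferon-stimulated genes was called, with a median log2 fold change of 0.193 and 11 of 13 above 0. Of 10 tested leukocyte genes 1 rose and 0 fell. It was S100a9, a neutrophil calcium-binding protein, which rose by 0.42 (adjusted p = 0.00064) and was lost without sham pool 2 (adjusted p = 0.0796). Ly86, a partner of the B cell and myeloid receptor RP105 that is on no list, rose by 0.57 (adjusted p = 0.0068) and was lost without sham pool 1 (adjusted p = 0.0536), sham pool 2 (0.0568) or SNI pool 1 (0.0515).

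**Figure D2:**
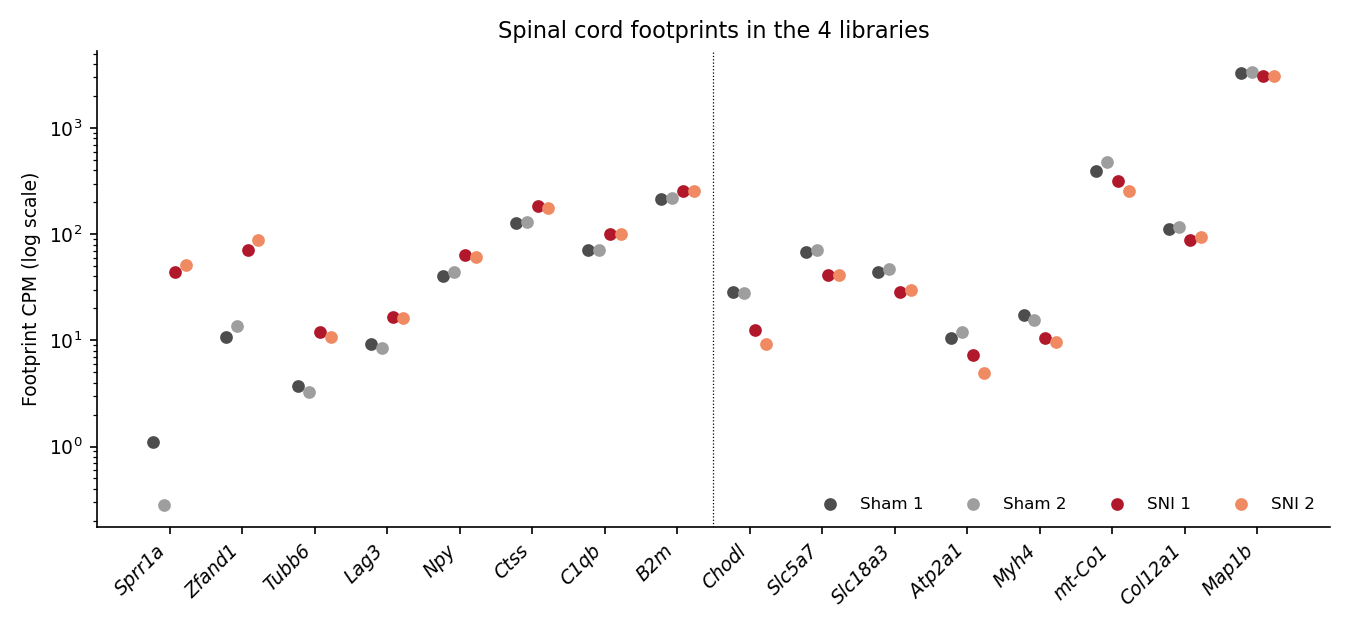
Footprint CPM (log scale) of 16 protein coding genes in each of the 4 libraries, 1 point per pool, with 8 genes that rose left of the dotted line and 8 that fell right of it. Sprr1a goes from 1.11 and 0.28 CPM in sham to 44.2 and 51.6 CPM after SNI, whereas B2m and Map1b move by less than 1.5-fold with pools of a group nearly on top of each other.

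Peptides and receptors of dorsal horn neurons changed little apart from Gal and Npy, the 2 of 15 tested neuropeptide genes that rose. Both are made by dorsal horn neurons and, after injury, by sensory neurons. Tac1, the precursor of substance P, had 49.7 and 50.2 CPM in sham and 51.4 and 59.0 CPM after SNI (adjusted p = 0.42). Of 31 tested genes of excitatory and inhibitory transmission 0 rose and 2 fell. Slc12a5, the chloride extruder KCC2 on which inhibition by GABA and glycine depends, had 1433 and 1435 CPM in sham and 1339 and 1340 CPM after SNI, a log2 fold change of -0.10 ± 0.017 (adjusted p = 0.00052). The glycine receptor beta subunit Glrb fell by 0.12 in log2 units (adjusted p = 0.0059) and was lost without sham pool 1 (adjusted p = 0.104). None of 16 immediate early genes or 33 sodium and calcium channel genes was called, with medians of -0.0742 and -0.0329. Of 64 potassium channel genes 0 rose and 3 fell, Kcnk9 by 0.20, Kcna1 by 0.10 and Kcnj10, the glial inward rectifier, by 0.09. Kcnk9 was lost without either sham pool or SNI pool 2, Kcna1 without any 1 library and Kcnj10 without sham pool 2 or SNI pool 2, with the highest adjusted p, 0.129, 0.207 and 0.294, without sham pool 2.

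Astrocyte genes went both ways, 3 of 22 higher and 4 lower. Gfap, the intermediate filament of reactive astrocytes, had 981 and 966 CPM in sham and 1054 and 1091 CPM after SNI, a log2 fold change of 0.14 ± 0.020 (adjusted p = 6.3e-05). Glutamine synthetase (Glul) rose by 0.13 ± 0.018 (adjusted p = 3.2e-05), and Aldoc, a glycolytic aldolase, by 0.07. The 4 genes that fell encode transporters of the astrocyte membrane. These were Slc7a10, an amino acid transporter, by 0.20, Atp1b2, a sodium pump subunit, by 0.10, the GABA transporter Slc6a11 by 0.10 and the glutamate transporter Slc1a2 by 0.09. Gfap and Glul were stable, and Slc6a11 was lost without SNI pool 2 (adjusted p = 0.0567). The water channel Aqp4 had 545 and 543 CPM in sham and 537 and 524 CPM after SNI and was not called.

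Oligodendrocyte genes also divided, 3 of 24 higher and 2 lower. Myelin basic protein (Mbp) had 3260 and 3280 CPM in sham and 3651 and 3596 CPM after SNI, a log2 fold change of 0.15 ± 0.013 (adjusted p = 4e-08), and was stable. Mobp and Olig1 rose by 0.14 each and Ugt8a, a galactolipid synthase, fell by 0.12, and these 3 calls were lost without sham pool 1 (adjusted p = 0.0609, 0.108 and 0.0668). Mobp was also lost without SNI pool 1 (0.147), Olig1 without sham pool 2 (0.145) or SNI pool 2 (0.144), and Ugt8a without sham pool 2 (0.118) or SNI pool 2 (0.134). Of 10 tested Schwann cell genes 0 rose and 1 fell, and Pmp22, a protein of peripheral myelin, had 349 CPM in both sham pools and 328 and 343 CPM after SNI (adjusted p = 0.42). The summed level of all 12 genes on the list was 1388 and 1381 CPM in sham and 1244 and 1276 CPM after SNI.

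Of 11 tested cholinergic and motor neuron genes 5 fell and 0 rose, with a median log2 fold change of -0.236. Chodl, a lectin-like membrane protein of fast motor neurons, lies at chr16:78930948-78951733 (GRCm38, plus strand). It had 28.7 and 28.2 CPM in sham and 12.4 and 9.28 CPM after SNI, a log2 fold change of -1.38 ± 0.13 (adjusted p = 5.2e-08), the largest decrease of a coding gene. The choline transporter Slc5a7 had 68.6 and 71.2 CPM in sham and 41.4 and 41.3 CPM after SNI, a log2 fold change of -0.76 ± 0.066 (adjusted p = 2.4e-08). The vesicular acetylcholine transporter Slc18a3, which lies inside an intron of Chat on the same strand, had 43.9 and 47.4 CPM in sham and 28.5 and 30.0 CPM after SNI, a log2 fold change of -0.65 ± 0.082 (adjusted p = 9.5e-06). These 3 genes were stable, and in each the SNI pools lay far below both sham pools.

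Chat, the enzyme that makes acetylcholine, had 25.5 and 24.7 CPM in sham and 18.1 and 18.6 CPM after SNI, a log2 fold change of -0.45 ± 0.11 (adjusted p = 0.017), and was lost without sham pool 1 (adjusted p = 0.0907), sham pool 2 (0.0969) or SNI pool 1 (0.112). Acetylcholinesterase (Ache) fell by 0.12 and was lost without sham pool 2 (adjusted p = 0.501) or SNI pool 1 (0.0821). Of 12 tested skeletal muscle genes 0 rose and 2 fell, with 1 above 0 and a median of -0.332, and the summed level of all 23 genes on the list was 321 and 328 CPM in sham and 295 and 271 CPM after SNI. The fast muscle myosin Myh4 had 17.5 and 15.6 CPM in sham and 10.6 and 9.71 CPM after SNI, a log2 fold change of -0.69 ± 0.14 (adjusted p = 0.0039). The calcium pump Atp2a1 had 10.6 and 11.9 CPM in sham and 7.33 and 4.93 CPM after SNI (adjusted p = 0.0062), and was lost without sham pool 2 (adjusted p = 0.127) or SNI pool 2 (0.121). The part of these muscle levels in the motor neuron result was not tested. Most motor neuron cell bodies sit in the ventral horn, and Mnx1, a transcription factor of motor neurons, had 6 to 10 reads in each library.

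Of 33 tested collagen, matrix and meningeal genes 6 fell and 0 rose, with a median of -0.0921. Col12a1, a fibril-associated collagen, had 113 and 117 CPM in sham and 88.0 and 93.3 CPM after SNI, a log2 fold change of -0.34 ± 0.051 (adjusted p = 0.0001). Sparc, a matrix glycoprotein also made by glia, fell by 0.13 ± 0.014 (adjusted p = 2.3e-06), and both were stable. The laminin chain Lamc1, decorin (Dcn), fibronectin (Fn1) and the prostaglandin synthase Ptgds fell by 0.22, 0.20, 0.17 and 0.07. Lamc1, Dcn and Ptgds were lost without sham pool 2 (adjusted p = 0.14, 0.23 and 0.227), Dcn and Ptgds also without SNI pool 1 (0.127 and 0.227), and Fn1 without sham pool 1 (0.118) or SNI pool 2 (0.0779). Pdgfd, a growth factor that is on no list, fell by 0.46 (adjusted p = 0.011) and was lost without sham pool 2 (0.326). None of 17 endothelial and mural cell genes was called.

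Of 27 tested genes of the microtubule and axon skeleton 7 rose, with Tubb6, Tubb3 and Gap43 among them, and 6 fell, with Map1b, Map1a and the 3 neurofilament subunits among them. Of these 13 calls, 7 were lost without at least 1 library and 6 with the trend over coding length taken out, an alternative described below. Map1b had 3342 and 3351 CPM in sham and 3094 and 3119 CPM after SNI, a log2 fold change of -0.11 ± 0.013 (adjusted p = 6e-06), and was stable, and Map1a fell by 0.10 ± 0.014 (adjusted p = 9e-05) and was lost with that alternative (adjusted p = 0.192).

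Among metabolic and translation genes few were called. Of 86 nuclear genes of oxidative phosphorylation 8 rose and 0 fell, and 72 were above 0. All 8 calls were lost with the trend over coding length taken out, the alternative described below. Ndufa7, a complex I subunit, had the largest called change among them, 0.23 in log2 units (adjusted p = 0.0066), and was lost without sham pool 1 (adjusted p = 0.104). None of 44 ribosomal protein genes was called, with 35 above 0 and a median of 0.0741. Of 30 translation factors 1 fell, Eif3a by 0.18, and it was lost without sham pool 2 (adjusted p = 0.119). Of 25 ATF4 and unfolded protein response genes 1 fell, the chaperone Hspa5, by 0.17 ± 0.021 (adjusted p = 5.7e-06), and it was stable. Of 24 sterol and fatty acid synthesis genes 2 fell, fatty acid synthase (Fasn) by 0.12 and Hmgcs1, an early enzyme of sterol synthesis, by 0.10. Hmgcs1 was lost without sham pool 1 (adjusted p = 0.105), sham pool 2 (0.122) or SNI pool 2 (0.161). Of 23 synaptic release genes 1 rose, the SNARE-disassembly adaptor Napb by 0.11 (adjusted p = 0.017), and it was lost without sham pool 2 (adjusted p = 0.234) or SNI pool 1 (0.0515). Of 30 lysosomal genes 1 rose and 0 fell, and in 40 histone genes none was called. Among 8 red cell genes the beta-globin Hbb-bs rose by 0.28 (adjusted p = 0.027), and was lost without sham pool 1 (adjusted p = 0.0666), sham pool 2 (0.286) or SNI pool 2 (0.295).

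**Figure D3:**
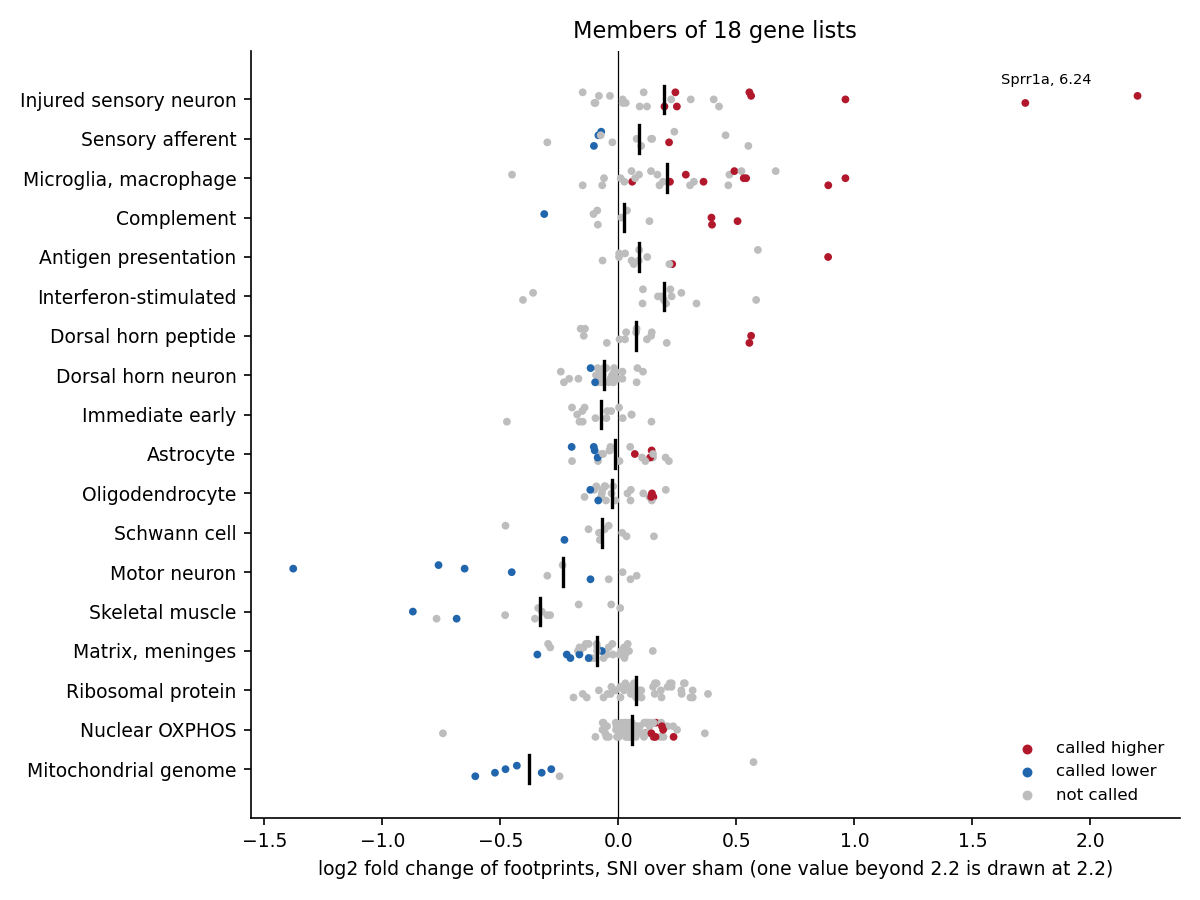
Log2 fold change of footprints, SNI over sham, of the tested members of 18 gene lists, 1 point per gene, red for called higher, blue for called lower and grey for not called, with a black bar at the list's median. The medians of the injured sensory neuron and microglia lists lie at 0.195 and 0.204, those of the motor neuron, skeletal muscle and mitochondrial genome lists at -0.236, -0.332 and -0.378, and Sprr1a, at 6.24, is drawn at the edge of the axis.

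Of the 37 stable genes, 13 belong to none of the groups above and those described were picked after their values were seen. Those that rose were led by Sgk1, a kinase induced by glucocorticoids, with 139 and 148 CPM in sham and 206 and 212 CPM after SNI, a log2 fold change of 0.54 ± 0.042 (adjusted p = 3.1e-09). The metallothioneins Mt1 and Mt2, which bind zinc, rose by 0.23 and 0.22, and the neuropeptide precursor Vgf by 0.21. The actin-binding peptide Tmsb4x rose by 0.18, brain creatine kinase (Ckb) by 0.13 and beta-actin (Actb) by 0.10. Among those that fell, the spectrin Sptan1, the sorting receptor Sorl1 and the lysophospholipase Enpp2 fell by 0.14 each, and the lipoprotein receptor Lrp1 by 0.12.

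A further pair of coding genes with large changes were weakly read. Mettl23, a methyltransferase, had 2.5 and 2.62 CPM in sham and 7.46 and 3.77 CPM after SNI, with the SNI pools far apart. It overlaps Jmjd6 and Srsf2 on the opposite strand and Mfsd11 on the same strand. Its call (adjusted p = 0.035) was lost without sham pool 1 (adjusted p = 0.127), sham pool 2 (0.196) or SNI pool 1 (0.62). C77080, which overlaps Yars on the opposite strand, rose by 0.59 (adjusted p = 0.039) and was lost without any 1 library (adjusted p from 0.0605 to 0.248).

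The mRNAs of the mitochondrial genome are translated by mitochondrial ribosomes inside the organelle. All reads of its 25 genes with a read made up 0.198% and 0.240% of the sham libraries and 0.177% and 0.149% of the SNI libraries, 0.219% ± 0.0297 against 0.163% ± 0.0201 (SD, n = 2 each). A two-sided exact permutation test gave p = 0.33, the smallest value that 2 against 2 allows. Of 8 tested coding genes 6 fell and 0 rose. mt-Co1, a core subunit of complex IV at chrM:5328-6872, had 391 and 480 CPM in sham and 318 and 257 CPM after SNI, a log2 fold change of -0.61 ± 0.069 (adjusted p = 1.9e-06). The complex I subunits mt-Nd5, mt-Nd1, mt-Nd2 and mt-Nd6 fell by 0.52, 0.48, 0.43 and 0.28 and cytochrome b (mt-Cytb) by 0.33.

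The mitochondrial calls leaned on single pools. The pools within a group differed here more than for nuclear genes, with sham pool 2 high and SNI pool 2 low. Without sham pool 2, mt-Co1 and mt-Nd1 were still called, whereas mt-Nd5 (adjusted p = 0.0965), mt-Nd2 (0.413), mt-Cytb (0.476) and mt-Nd6 (0.39) were not, and mt-Nd6 was lost without SNI pool 2 (0.15) as well. The SNI pools of mt-Cytb, at 370 and 278 CPM, overlapped the sham pools, at 366 and 442 CPM. mt-Nd5 and mt-Nd6 lie on opposite strands of an overlapping stretch, and counting is not stated to use strand. Footprints of 5 of these genes fell by more than their mRNA, as given below.

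Coding length moved with the direction of the change. The median longest annotated coding length was 759 bases for the 84 genes that rose, 2734 bases for the 108 that fell and 1458 bases for all protein coding genes tested. In 5 bins from the shortest to the longest coding length, the median log2 fold change was 0.0413, 0.0131, -0.0004, -0.0176 and -0.038. From the shortest to the longest bin the share called higher went from 1.96% to 0.215% and the share called lower from 0.17% to 2.36%. All 4 pairings of an SNI with a sham pool showed this, with medians of 0.0385 to 0.0437 in the shortest bin and -0.0407 to -0.0348 in the longest, while pools of the same group differed by at most 0.0084. The mRNA change of the same bins went from 0.02 to -0.0213. With the fitted trend over coding length taken out, an alternative chosen after seeing the data, 50 genes rose and 64 fell. Of the 37 stable genes, 35 were called in that fit too, and Tmsb4x (adjusted p = 0.127) and Lrp1 (0.104) were not. Further genes named above that were lost in it are Ache, Apoe, C3, Eif3a, Fasn, Fn1, H2-Q4, Hbb-bs, Kcna1, Lamc1, Mettl23, Mobp, mt-Cytb, Napb, Ndufa7, Nefh, Olig1, Sncg and Tyrobp.

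**Figure D4:**
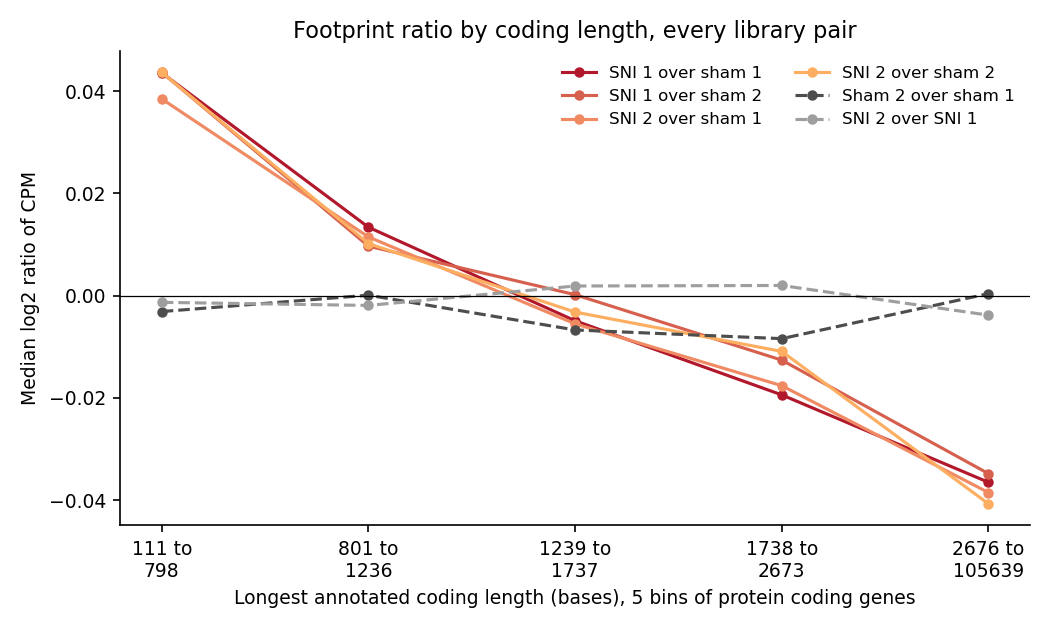
Median log2 ratio of CPM between 2 libraries in 5 bins of coding length (bases, from 2324 to 2350 genes per bin), 1 line per pair of libraries. The 4 solid lines, an SNI over a sham pool, run from about 0.04 in the shortest bin to -0.04 in the longest, and the 2 dashed lines, pools of the same group, stay within 0.0084 of 0.

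Outside protein coding genes the picture was different. Of 356 genes of other types 61 were higher in the SNI libraries (17.1%) and 16 lower (4.49%), with 49 and 9 beyond 1.5-fold. Small RNAs made up most of these. All small RNA genes together took 1.72% and 1.76% of the reads in sham and 2.38% and 2.36% after SNI, and protein coding genes 97.4% and 97.3% against 96.8% in both SNI pools. Reads in 373 miRNA genes took 0.342% and 0.320% in sham and 0.818% and 0.853% after SNI, 0.331% ± 0.0154 against 0.835% ± 0.0247 (SD, n = 2). Reads in 239 snoRNA genes took 0.299% and 0.297% in sham and 0.443% and 0.398% after SNI. The permutation p was 0.33 for each of these 4 shares, again the smallest possible. The remaining small RNA genes did not rise as a class, with 1.08% and 1.15% in sham and 1.12% and 1.11% after SNI. The share of long noncoding and pseudogene reads lay between 0.650% and 0.669% in all 4 libraries.

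Of 17 tested miRNA genes 14 were called higher (82.4%) and 0 lower, and at an unadjusted p under 0.05 there were 14 higher and 1 lower. For 8 of these 14 the sham reads alone were under 64, so that they reached the minimum through the SNI pools and this count by itself says little. A single gene of type miRNA, Gm25732, held most of the reads, 89.4% and 86.7% of all miRNA reads in sham and 91.0% and 91.3% after SNI. It is 60 bases long, lies at chr4:139338206-139338265 (GRCm38, plus strand) outside any other annotated gene, and had no RefSeq mature match. It had 3059 and 2774 CPM in sham and 7443 and 7781 CPM after SNI, a log2 fold change of 1.39 ± 0.026 (adjusted p = 1.9e-21). In the fit of spinal cord and DRG footprints together, it was not called (adjusted p = 0.529). Without it the remaining miRNA genes held 0.0364% and 0.0424% of all reads in sham and 0.0733% and 0.0746% after SNI, so the rise was present in both.

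Mir34a and the let-7 genes Mirlet7c-1, Mirlet7b and Mirlet7a-2, the last given below, were higher in both SNI pools. Mir34a had 14.4 and 11 CPM in sham and 63.6 and 65.2 CPM after SNI, a log2 fold change of 2.37 ± 0.097 (adjusted p = 3e-14). Mirlet7c-1 had 12.5 and 10.8 CPM in sham and 54.8 and 51.0 CPM after SNI, a log2 fold change of 2.21 ± 0.10 (adjusted p = 1.5e-13). Mirlet7b, whose let-7b-5p has the seed of let-7c-5p (GAGGUAG), had 5.69 and 3.74 CPM in sham and 24.1 and 16.2 CPM after SNI, a log2 fold change of 2.16. Let-7 miRNAs are abundant in neurons and mature tissue, and miR-34a is induced by p53.

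Genes with the other shared seed, GGAAGAC, moved alike in direction. Mir7b had 11.9 and 11.6 CPM in sham and 46.6 and 40.6 CPM after SNI, a log2 fold change of 1.90 ± 0.11, and Mir7-2 had 1.94 and 2.90 CPM in sham and 9.55 and 8.26 CPM after SNI, a log2 fold change of 1.82 ± 0.23. Mir219a-2 and Mir338, both known from oligodendrocyte differentiation, rose from 3.33 and 3.55 CPM to 25 and 25.1 CPM and from 1.25 and 1.5 CPM to 17.4 and 13.6 CPM, log2 fold changes of 2.85 and 3.47. The largest change was that of Mir15a, with 0.833 and 0.841 CPM in sham, from 6 and 9 reads, and 11.8 and 10.4 CPM after SNI, a log2 fold change of 3.71 ± 0.27 (adjusted p = 8.9e-10). Mirlet7a-2, Mir29a, Mir10b and the red cell miRNA gene Mir451a had log2 fold changes of 3.08, 2.60, 2.43 and 1.76. Of the 14 genes 13 were called in DESeq2. That fit used the same reads and the same read minimum, so it adds no separate support. The exception was Mir1983, at 0.83 (adjusted p = 0.026), which was lost without sham pool 2 (adjusted p = 0.288) or SNI pool 1 (0.114).

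The miRNA genes that were not called are Snord43, a snoRNA gene that the table types as miRNA, Mir6236 and Gm23935, at log2 fold changes of 0.09, -0.15 and -0.70. Mir6236, the most read gene of type miRNA after Gm25732, had 139.5 and 169 CPM in sham and 127.6 and 157 CPM after SNI. Gm23935 had 12.6 and 27.9 CPM in sham and 9.55 and 17.4 CPM after SNI, so its groups overlapped. Mature sequences of the tested genes are 19 to 24 bases long, shorter than the band of 28 to 32 nucleotides cut from the gel, and counts per gene do not show which arm or what length of RNA was read.

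**Figure D5:**
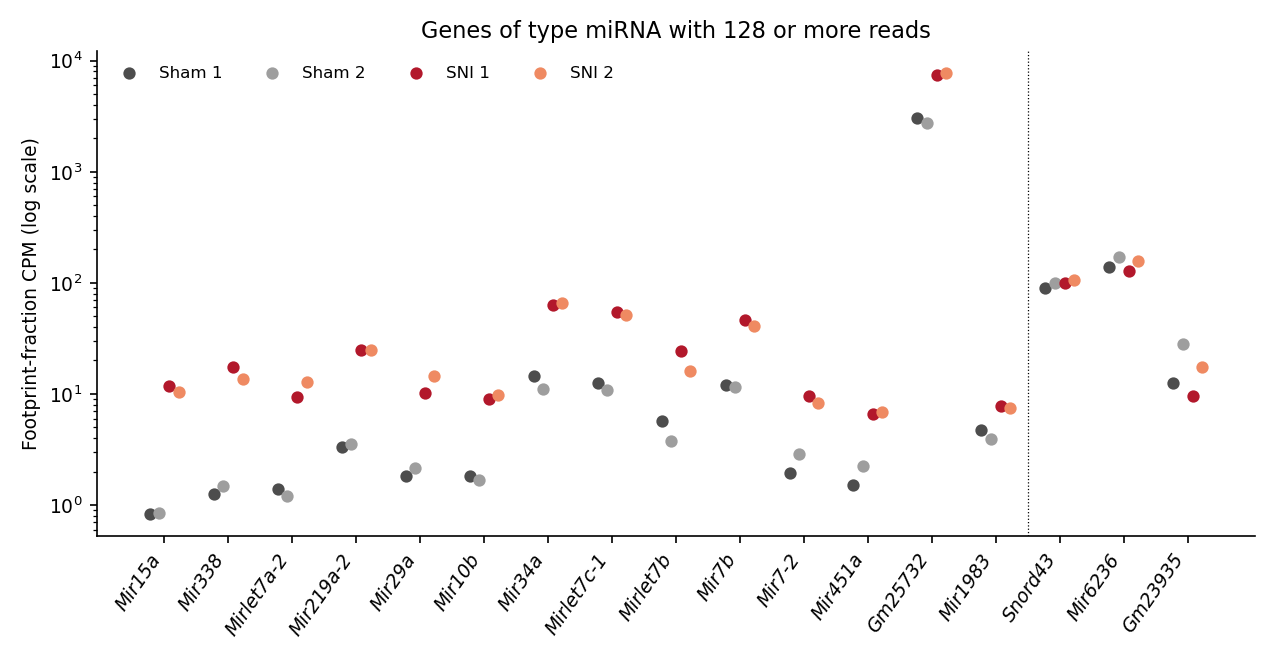
CPM in the footprint fraction (log scale) of the 17 tested genes of type miRNA in the 4 libraries, 1 point per pool, with the 14 called higher left of the dotted line in order of their change and the 3 not called right of it. In every gene left of the line both SNI pools lie above both sham pools, from Mir15a at 0.833 and 0.841 against 11.8 and 10.4 CPM to Mir1983 at 4.72 and 3.93 against 7.72 and 7.39 CPM. These genes were called from the same values, so this separation adds no support to the calls.

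Of 89 tested snoRNA genes 34 were higher (38.2%) and 0 lower, and 55 were not called. snoRNAs guide chemical modification of other RNAs and are mostly cut from introns. Snora30, in an intron of Srcap, had 7.64 and 6.45 CPM in sham and 31.8 and 30.4 CPM after SNI, a log2 fold change of 2.17 ± 0.13 (adjusted p = 1.8e-11). Gm23442, in an intron of Prrc2a, had 49.0 and 35.3 CPM in sham and 182 and 132 CPM after SNI, a log2 fold change of 1.95 ± 0.12 (adjusted p = 2.1e-11). Snord49a and Snord49b, in 1 host transcript, rose by 0.70 and 0.73. Of the 34 genes, 31 lay in introns of a gene on the same strand, and 22 of these had a tested host, 21 hosts in all. None of the 21 hosts was called, and their log2 fold changes lay between -0.19 and 0.281 with a median of -0.00423, against 0.385 to 2.17 for the 34 snoRNAs. A pair of miRNA genes had a tested host, Aatk for Mir338 and 3110039I08Rik for Mirlet7a-2, at -0.0254 and -0.0248. Other noncoding genes that rose were Rnu12, the U12 spliceosomal snRNA, by 0.75, the Y RNA gene Rny3 by 0.46 and the nuclear RNA Malat1 by 0.26, each called in DESeq2 and in every refit without a library.

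Of the 16 noncoding genes that were lower, 6 were snRNA genes. As a type these went both ways, with 6 of 28 tested snRNA genes lower, 4 higher and a median log2 fold change of -0.0694. Gm22550, of type snRNA at chrX:54118995-54119101, had 8.75 and 6.54 CPM in sham and 0.654 and 0.870 CPM after SNI, or 63 and 70 reads against 5 and 6, a log2 fold change of -3.27 ± 0.34 (adjusted p = 3.7e-07). The snRNA genes Gm25578, Gm22977 and Gm22351 fell by 0.95, 0.72 and 0.65. Gm42418, which overlaps an rRNA gene on chr17:39846958-39848788, had 467 and 520 CPM in sham and 199 and 254 CPM after SNI, a log2 fold change of -1.13 ± 0.060 (adjusted p = 2.8e-12). Gm37194, a gene model without a class, fell by 1.14, and the mitochondrial valine tRNA mt-Tv by 0.72. Scarna17 fell by 1.05, and was lost without sham pool 2 (adjusted p = 0.294) or SNI pool 1 (0.325). Copies of snRNA and rRNA genes are near-identical, so that their values are uncertain. Of the 16 genes, 9 were called in DESeq2 and in every refit without a library, not among them Gm22351 and Scarna17.

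To ask whether footprints changed by more or less than mRNA, the change in each assay was compared within lysates for 11865 genes that passed the minimum in both. The changes differed for 30 genes (0.253%), 20 with the footprint change above and 10 with it below. Only 7 of 11619 protein coding genes were among them (0.0602%), against 23 of 246 genes of other types (9.35%). Zfand1 was the 1 coding gene above. Those below were mt-Co1 (by 0.49), mt-Nd1 (0.45), mt-Nd5 (0.43), mt-Nd2 (0.32), mt-Cytb (0.25) and Zfp654, a zinc finger gene with a footprint change of -0.13 and an mRNA change of 0.37. The genes of other types include Mir219a-2, with a difference of 2.85, Gm23442 (2.13), Gm25732 (1.63), Snora30 (1.5), Rny3 (0.50), Malat1 (0.24), Gm42418 (-1.04) and Gm37194 (-1.47). The mRNA libraries were made from poly(A)+ RNA, in which most small RNAs are scarce.

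For the remaining coding genes no difference between the footprint and the mRNA change was called. Small differences can be missed, since in simulated counts this comparison recovered 15% of 1.2-fold changes, against 55% for footprints alone. The lack of a call therefore does not show that both changes were equal. Sprr1a had an mRNA log2 fold change of 7.28 beside 6.24 in footprints (adjusted p of the difference = 0.76). Tubb6 had 1.25 beside 1.72, Npy 0.56 beside 0.56, Ctss 0.51 beside 0.49, C1qb 0.46 beside 0.50, Chodl -1.08 beside -1.38 and Slc5a7 -0.70 beside -0.76. C3 had an mRNA change of 0.05 beside -0.31 in footprints, and the difference did not pass (adjusted p = 0.22).

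In the DRG, 16.7% of 13038 tested genes changed in footprints after SNI. The difference of the spinal cord and the DRG change passed for 1000 of 11510 genes tested in both (8.69%). Npy rose by 0.56 in the spinal cord and by 3.95 in the DRG, Gal by 0.56 and 2.11, and Ecel1 by 0.25 and 2.99. Sprr1a rose by 6.24 in the spinal cord, from 3 and 8 sham reads, and by 4.17 in the DRG. Zfand1 went in opposite directions, up by 2.66 in the spinal cord and down by 1.65 in the DRG. Of the 14 miRNA genes higher in the spinal cord, 12 were tested in the DRG, where 6 were lower, 0 higher and 6 not called. Those lower were Mirlet7a-2 by 0.77, Mir29a by 0.62, Mir34a by 0.53, Mir338 by 0.50, Mir451a by 0.44 and Mirlet7c-1 by 0.37. Those not called were Gm25732 at -0.81 (adjusted p = 0.32), Mir10b at -0.40, Mir7b at -0.24, Mirlet7b at -0.23, Mir15a at -0.19 and Mir1983 at 0.56. The tissue difference passed for 10 of the 12, and not for Gm25732 (adjusted p = 0.34) or Mir1983 (0.73). These genes were picked by their spinal cord change, which is 1 side of this difference, so the 10 add no separate support. For 8 of the 14 the sham reads alone in the spinal cord were under 64.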

How the data were processed

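Spinal cord lysates of 2 sham and 2 SNI pools were each split into a footprint and a poly(A)+ mRNA library. Per the labels, the authors filtered out reads of rRNA and tRNA (Bowtie 1.1.2), mapped the rest to GRCm38.p5 (STAR 2.5.2b) and made counts with HTSeq (version not given in the sources used here). The deposited read counts are whole numbers that are not normalised, and the deposited RPKM and TE columns were not used here.

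Counts were tested with edgeR 4.0.16 in R 4.3.3 (TMM factors, library sizes from column sums, two-sided quasi-likelihood tests), on genes with more than 127 reads over the 4 libraries. Adjusted p is Benjamini-Hochberg over all genes tested, and a call is an adjusted p under 0.05. The footprint and the mRNA change were compared as an interaction with lysate terms, and the spinal cord and the DRG change as an interaction over 8 footprint libraries. Log2 fold changes are those of the fit, ± their SE, and CPM are TMM-normalised. Scripts were tested on simulated counts. The alternatives included DESeq2 1.42.0, fixed dispersion, a test against 1.5-fold, other filters and scalings, and each library left out in turn. A coding length offset and a fit without Gm25732 were added after seeing the data.

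The members and gene lists were chosen with earlier results of these data known. Genes named are the largest called changes in each direction with pools that do not overlap (12 coding, 8 other), up to 3 called and 2 uncalled members of each list, and the genes the study discusses. All tested miRNA genes, some further list members and the other genes called by DESeq2 were named after their values were seen. Some genes that were counted are not reported here by name. Gene positions come from GENCODE M21 (12007 of 12018 genes matched), and mature miRNA sequences from RefSeq (13 of the 14 miRNA genes called). Tables and figures were made with Python 3.11.15, pandas 2.3.3 and matplotlib 3.10.9.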

Additional observations from a re-analysis of the deposited data

Results flagged for a closer look

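For the genes below the difference between the spinal cord and the DRG response of footprints to SNI passed the interaction test (edgeR quasi-likelihood, Benjamini-Hochberg over 11510 genes), and the value is the spinal cord log2 fold change minus that in the DRG.

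Injury peptides and enzymes had a smaller change in the spinal cord, Npy by -3.39, Ecel1 by -2.74, Gal by -1.54, Gap43 by -0.373 and Vgf by -0.246, while for Sprr1a the value was 2.08. Muscle genes, lower or not called in the spinal cord and higher in the DRG, were at -3.14 for Atp2a1, -2.4 for Myh4 and -1.55 for Acta1. Motor neuron genes were at -1.27 for Slc5a7, -0.843 for Chodl and 0.173 for Ache. Immune genes were at -0.749 for C3, -0.625 for Cx3cr1, -0.229 for Ctss, -0.203 for Csf1r, 0.256 for S100a9 and 0.458 for Ly86.

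Genes of the mitochondrial genome were at -0.718 for mt-Tv, -0.676 for mt-Co1, -0.508 for mt-Nd5, -0.465 for mt-Nd1, -0.4 for mt-Nd6 and -0.353 for mt-Cytb. Matrix genes, which rose in the DRG, were at -0.474 for Col12a1, -0.395 for Dcn, -0.368 for Fn1, -0.354 for Lamc1, -0.313 for Sparc and -0.203 for Ptgds. Glial genes were at -0.17 for Atp1b2, 0.128 for Glul, 0.233 for Mbp, 0.329 for Aldoc, 0.644 for Gfap and 0.675 for Slc6a11.

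Neuronal genes with a larger decrease in the DRG were at 0.0612 for Map1b, 0.112 for Map1a, 0.159 for Glrb, 0.181 for Kcna1, 0.225 for Nefl, 0.267 for Nefm, 0.272 for Nefh and 1.36 for Slc12a5, with Tac1 at 0.294 and Sncg at 0.341. Further genes were at -0.209 for Lrp1, -0.15 for Fasn, -0.144 for Hmgcs1, -0.0946 for Sptan1, 0.126 for Napb, 0.203 for Mt1, 0.264 for Ckb, 0.356 for Hbb-bs, 0.503 for Sgk1, 0.699 for C77080 and 1.12 for Mettl23. Zfand1 had the highest value of all the genes named, 4.32, with opposite directions in both tissues.

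Noncoding genes were at -1.7 for Scarna17, -0.749 for Gm42418, -0.727 for Gm25578, 0.243 for Snord49a, 0.304 for Snord49b, 0.288 for Malat1, 0.717 for Rny3, 2.29 for Gm23442 and 2.5 for Snora30. The miRNA genes that passed were at 2.14 for Mir7b, 2.21 for Mir451a, 2.41 for Mirlet7b, 2.58 for Mirlet7c-1, 2.84 for Mir10b, 2.9 for Mir34a, 3.23 for Mir29a, 3.87 for Mirlet7a-2, 3.91 for Mir15a and 3.97 for Mir338.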

How the results depend on the processing

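The number of coding genes called depended strongly on the model of spread. Against 84 higher and 108 lower calls in the reported fit, DESeq2 called 22 and 15, a coefficient of variation fixed at 0.1 gave 7 and 5, and a test against 1.5-fold gave 3 and 1. Without a filter 167 were lower, with both tissues in 1 fit 163 were lower, and with the coding length offset, chosen after seeing the data, 50 were higher and 64 lower. Leaving out 1 library gave 44 to 87 higher and 58 to 102 lower, lowest without sham pool 2 for the higher genes and without sham pool 1 for the lower ones. Sprr1a, Zfand1, Tubb6 and Chodl were the 4 coding genes that passed against 1.5-fold.

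Against 61 higher and 16 lower calls in other gene types, the fit without a filter called 105 higher, the fit with the read minimum required in each library 30 higher and the test against 1.5-fold 23 higher, while DESeq2 called 9 lower, the fixed coefficient 9 lower and the 1.5-fold test 4 lower. Leaving out 1 library gave 54 to 63 higher and 15 to 21 lower. The 30 genes with different footprint and mRNA changes became 13 in DESeq2 and 27 to 42 without 1 library, and the 1000 that differed between tissues became 673 to 782. With the total taken over protein coding and small RNA genes alone, the mean shares of miRNA, snoRNA and mitochondrial genes after SNI moved by less than their spread, whereas the sham share of snoRNA moved from 0.2977% to 0.2998%, more than its SD of 0.00109. With both tissues in 1 fit Gm25732 (adjusted p = 0.529), Slc1a2 (0.524), Slc12a5 (0.295), Mobp (0.288), Aldoc (0.172), Slc6a11 (0.156), Ptgds (0.108), Apoe (0.0915) and Olig1 (0.0563) were not called. No named gene that was called changed its direction under any alternative that could be run for it.

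Pool numbers are shared between groups, but nothing ties same-numbered pools, and the deviations of both number 1 libraries from their group means had a correlation of -0.0332 across genes. With a replicate block the counts were 131 and 184 coding genes higher and lower, 65 and 20 other genes, 26 genes for the footprint against mRNA difference and 968 for the tissue difference.

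With 2 pools per group and a coefficient of variation of 0.016, small differences in well-read genes pass the test, and how far new pools of mice would differ is not measured. The SE of called coding genes ran from 0.0101 to 0.294, so that changes which pass in well-read genes are not detectable at the depth of weakly read ones.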
